A study of Mus musculus with 7 samples.

Results

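The Ly6 genes of the mouse form a cluster on chromosome 15 that encodes small, cysteine-rich surface proteins, most of them held in the membrane by a lipid (GPI) anchor. The 9 members described here were chosen by symbol (Ly6a, Ly6c1, Ly6c2, Ly6d, Ly6e, Ly6g, Ly6h, Ly6i and Ly6k), with knockout and wild type values of these same libraries already known, so that their differences between genotypes are given as a description and carry no test. Of these 9, 8 had a row among the 28828 rows of the count table, and Ly6h was not analysed here. RNA of whole lung from C57BL/6 mice was sequenced in 4 wild type libraries (WT2, WT3, WT4 and WT6) and in 3 libraries of mice with a knockout of the secretoglobin gene Scgb3a2 (KO3, KO4 and KO5). All 7 libraries share the strain and the tissue, and the labels give no age, sex, allele design or treatment, and do not tie libraries to separate mice. Errors therefore measure the spread between libraries, which may be technical.

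Proteins of this family carry a compact fold of finger-like loops fixed by disulphide bonds, shared with the urokinase receptor, which gives the wider group its name (the Ly6/uPAR superfamily). Several members are textbook surface markers. Ly6a, also called Sca-1, marks blood stem cells and is also found on endothelium and on some fibroblasts, Ly6c1 and Ly6c2 encode the Ly6C antigen of monocytes and endothelium, and Ly6g encodes the antigen by which mouse neutrophils are recognised. Ly6d is found on B lineage cells and on squamous epithelium, and Ly6a, Ly6c and Ly6e are known to respond to interferon.

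Totals ranged from 13071262 to 16480006 counts per library. Scgb3a2 had 252 ± 41.3 CPM (counts scaled to library size by the TMM method) in wild type (SD, n = 4) and 1.72 ± 0.83 CPM in knockout libraries (SD, n = 3), as the labels state, and the lung epithelial genes Sftpc, Sftpb and Ager were abundant in all 7 libraries. WT6 and KO5 stood apart from the other libraries on the leading principal component (scores of 36.3 and 49.98 against -30.5 to -5.59), and each member's fold change is therefore also given without this pair. In bulk tissue, fewer cells of a type and less RNA per cell cannot be told apart.

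All 9 members lie within 805.2 kb of chromosome 15 (74762056 to 75567255, GENCODE M21 on GRCm38). Ly6d (74762056 to 74763620), Ly6k (74796874 to 74799986), Ly6i (74979534 to 74983430), Ly6a (74994877 to 74998031), Ly6c1 (75044018 to 75048830), Ly6c2 (75108158 to 75111970) and Ly6h (75551268 to 75567255) are on the minus strand. Ly6e (74955051 to 74959905) and Ly6g (75155240 to 75159126) are on the plus strand. All 9 are annotated as protein-coding, and the deposited table gives a count for the gene as a whole, not for single exons.

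Ly6a, Ly6c1, Ly6c2, Ly6g and Ly6i are close copies, and their sequences are shown first because they bear on how far their counts can be kept apart. The opening bases 1 to 120 of each coding part, counted from the A of the start codon and read from GENCODE M21 transcripts, are given with capitals where the letter differs from that of Ly6c1 at the same position.
Ly6c1: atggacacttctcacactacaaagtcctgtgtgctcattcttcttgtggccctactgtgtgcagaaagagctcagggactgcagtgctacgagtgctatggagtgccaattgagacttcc
Ly6c2: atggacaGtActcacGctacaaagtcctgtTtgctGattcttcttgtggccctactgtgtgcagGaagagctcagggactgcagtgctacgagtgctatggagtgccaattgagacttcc
Ly6a: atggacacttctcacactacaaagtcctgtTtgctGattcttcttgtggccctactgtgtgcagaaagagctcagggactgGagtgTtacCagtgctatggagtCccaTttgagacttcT
Ly6i: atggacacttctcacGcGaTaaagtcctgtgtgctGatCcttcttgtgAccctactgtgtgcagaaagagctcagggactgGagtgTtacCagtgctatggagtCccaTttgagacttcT
Ly6g: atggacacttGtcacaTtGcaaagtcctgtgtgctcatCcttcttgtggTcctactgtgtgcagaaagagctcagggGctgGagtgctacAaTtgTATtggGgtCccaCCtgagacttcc

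Over these 120 bases, Ly6c2 differed from Ly6c1 at 6 positions, Ly6a at 8, Ly6i at 12 and Ly6g at 16. Over the whole coding part (393 bases in both genes), Ly6c1 and Ly6c2 were identical at 384 positions (97.7%). Identity over aligned coding positions was 86.3% between Ly6a and Ly6i and 83.7% between Ly6a and Ly6c1. Ly6e, Ly6d and Ly6k stood further off, and none of their 75-base stretches occurred in another gene's transcripts. Of all distinct 75-base stretches of its transcripts, Ly6c1 shared 19.0% with another gene, Ly6c2 9.46%, Ly6a 6.33% and Ly6i 0.519%. With 50-base stretches the shares were 32.8% for Ly6c1, 19.0% for Ly6a, 14.4% for Ly6c2 and 4.76% for Ly6i. With 150-base stretches they were 2.29% for Ly6c1, 1.43% for Ly6c2 and 0 for Ly6a and Ly6i. Neither the read length nor the treatment of reads that fit several places is known from the sources used here. The split of reads between Ly6c1, Ly6c2 and Ly6a is thus uncertain, as is that between Ly6a and the low gene Ly6i if reads were short.

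RefSeq promoter sequences (GRCm38.p6) were matched for 3 of the 9 members, Ly6c1, Ly6c2 and Ly6g. The 250 bases before the start of each are shown because these close copies had very different counts. Capitals mark matches to TATAAA or CCAAT on either strand. The windows are chr15:75048838-75049087 (minus strand) for Ly6c1, chr15:75111972-75112221 (minus strand) for Ly6c2 and chr15:75155011-75155260 (plus strand) for Ly6g.
Ly6c1: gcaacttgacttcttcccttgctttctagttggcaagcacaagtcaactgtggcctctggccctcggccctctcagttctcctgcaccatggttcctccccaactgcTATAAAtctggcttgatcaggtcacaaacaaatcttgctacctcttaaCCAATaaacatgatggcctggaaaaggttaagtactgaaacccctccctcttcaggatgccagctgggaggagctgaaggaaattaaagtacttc
Ly6c2: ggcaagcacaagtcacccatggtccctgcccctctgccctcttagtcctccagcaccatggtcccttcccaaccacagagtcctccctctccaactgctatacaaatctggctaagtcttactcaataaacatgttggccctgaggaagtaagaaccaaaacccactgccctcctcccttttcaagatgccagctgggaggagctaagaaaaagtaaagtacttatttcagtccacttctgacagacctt
Ly6g: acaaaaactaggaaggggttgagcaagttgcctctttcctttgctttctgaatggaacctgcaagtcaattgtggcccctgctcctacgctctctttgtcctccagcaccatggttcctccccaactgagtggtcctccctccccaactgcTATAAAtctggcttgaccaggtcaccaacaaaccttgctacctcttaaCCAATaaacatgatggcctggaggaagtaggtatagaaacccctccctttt

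Ly6c1 and Ly6g each held 1 TATAAA, beginning 143 and 99 bases before the start, and 1 CCAAT, beginning 95 and 51 bases before it. No match to either was found in the Ly6c2 window. Among 32851 RefSeq promoter windows of the same length, 12.4% held TATAAA and 33.9% held CCAAT. The interferon-related motifs TTCNNNGAA (in 7.02% of all windows) and the core of the interferon-stimulated response element, a pair of GAAA blocks 2 bases apart (in 2.98%), had no match in these 3 windows, searched on both strands. Aligned without gap positions, the Ly6c1 window was 75.9% identical to that of Ly6c2 and 83.5% identical to that of Ly6g. RefSeq gives a further start for each of these genes, and there only the Ly6g window held matches, again 1 TATAAA and 1 CCAAT.

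Levels within the family spanned several orders of magnitude. Ly6e, Ly6a and Ly6c1 were abundant, while Ly6c2, Ly6d and Ly6i had a few CPM and Ly6k and Ly6g almost no reads. Together the 8 members took 0.0938% to 0.132% of all counts in wild type and 0.0852% to 0.128% in knockout libraries. Per kilobase of merged exons, the mean wild type level was 234 ± 48.2 CPM per kb for Ly6a, 157 ± 26.4 for Ly6e and 140.2 ± 54.3 for Ly6c1 (SD, n = 4), and the ranges of these 3 genes over the wild type libraries overlapped. Next came Ly6d (2.33 ± 0.25 CPM per kb), Ly6c2 (1.20 ± 0.27) and Ly6i (0.69 ± 0.43), where Ly6d lay clear of Ly6c2 and the ranges of Ly6c2 and Ly6i overlapped. In CPM, Ly6c2 (2.44 to 4.22 in wild type) lay above Ly6d (1.55 to 1.97). Their order per kb thus rests on the annotated lengths, 2740 bases of merged exons for Ly6c2 (2680 in its longest transcript) and 744 for Ly6d. Ly6k had 0.19 ± 0.09 CPM per kb. With the longest transcript as the length, Ly6c1 came before Ly6e (279 ± 107.8 against 260.4 ± 43.7 CPM per kb), again with overlapping ranges.

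**Figure D1:**
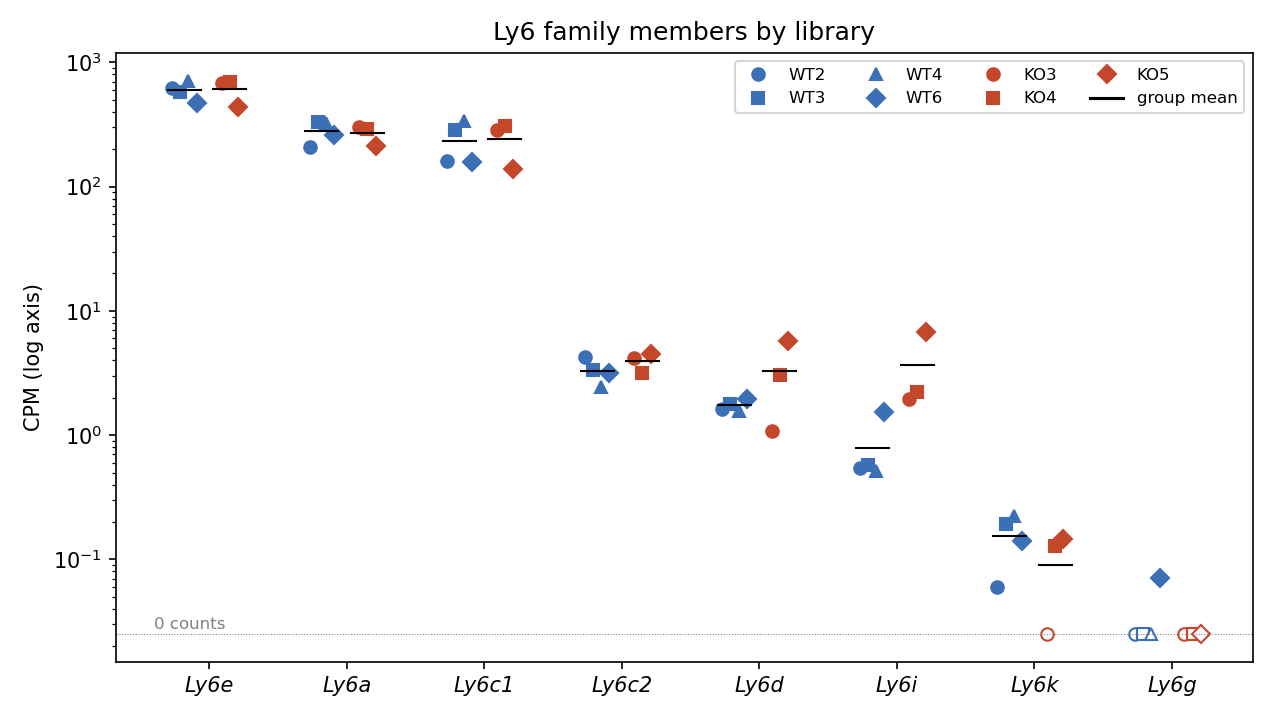
CPM on a log axis for the 8 measured Ly6 members, with 1 point per library (wild type blue, knockout red), black lines at the group means, and open points for libraries with 0 counts. Ly6e, Ly6a and Ly6c1 sit above 100 CPM in every library, Ly6i is the member whose 3 knockout points all lie above the 4 wild type points, and Ly6g has a count in WT6 only.

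The 3 abundant members had like means in both genotypes. Ly6a had 208, 333, 323 and 262 CPM in WT2, WT3, WT4 and WT6, against 301, 291 and 212 CPM in KO3, KO4 and KO5. The genotypes overlapped throughout, and the log2 fold change was -0.07 ± 0.18 (SE), or 0.04 ± 0.19 without WT6 and KO5. Ly6c1 had 159.6, 288, 336 and 157 CPM in the wild type and 285, 307 and 138 CPM in the knockout libraries. Its log2 fold change was 0.05 ± 0.37, or 0.19 ± 0.37 without the pair.

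Ly6c1 fell into separate groups of libraries that cut across genotype. WT3, WT4, KO3 and KO4 had 285 to 336 CPM, whereas WT2, WT6 and KO5 had 138 to 159.6 CPM. The 4 libraries high in Ly6c1 were also the 4 highest in Ly6a, but the ratio of Ly6c1 to Ly6a counts was itself lower in WT2, WT6 and KO5 (0.77, 0.60 and 0.65) than in WT3, WT4, KO3 and KO4 (0.87, 1.04, 0.95 and 1.05). The summed level of the endothelial marker list did not order the libraries this way, though single genes of it did. The sum was highest in WT2 (5298 CPM) and lowest in KO5 (4065 CPM), and all 16 of its genes were tested with 0 called (unadjusted p under 0.05 for 0, 0 in DESeq2, median log2 fold change -0.15). Of the 16 log2 fold changes, 15 were negative. Kdr had all knockout values below all wild type values, as 1.61% of all genes tested did. The endothelial genes Pecam1 and Cdh5, coding for adhesion proteins of vessel walls, had 882 and 982 CPM in WT2, 679 and 731 CPM in WT6 and 637 and 648 CPM in KO5. The carbonic anhydrase gene Car4 was lowest in WT2, WT6 and KO5 (123, 92.97 and 93.4 CPM, with 145 to 176 CPM in the other 4 libraries), as was the transcription factor gene Sox17 (63.4, 49.2 and 53.1 CPM, with 65.4 to 76.6 CPM). Car4 and Sox17 were named after their values were seen. No other gene of the 16 was lowest in WT2, WT6 and KO5. Of these others, Kdr, Tie1, Plvap, Ednrb, Gja5 and Bmx were highest in WT2. The mesothelial list, including the mucin Muc16, was highest in WT6 and KO5 (348 and 327 CPM against 138 to 194 CPM in the other libraries). WT2, with 159.9 CPM of mesothelial markers, was low in Ly6c1 without that rise. The part of these lists in the Ly6c1 values was not tested.

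Ly6e, once described as thymic shared antigen and a known interferon-responsive gene, was the member with the most counts. It had 617, 575, 712 and 472 CPM in WT2, WT3, WT4 and WT6, against 680.2, 699 and 439.7 CPM in KO3, KO4 and KO5. The lowest values were those of WT6 and KO5, one of each genotype. The log2 fold change was 0.03 ± 0.18, or 0.12 ± 0.11 without this pair. Interferon-stimulated genes summed to 413 to 548 CPM in wild type, against 405 to 452 CPM in knockouts, and 0 of the 24 were called in edgeR (3 with an unadjusted p under 0.05, 0 in DESeq2, median -0.20). Of their 24 log2 fold changes, 19 were negative and 5 positive.

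**Figure D2:**
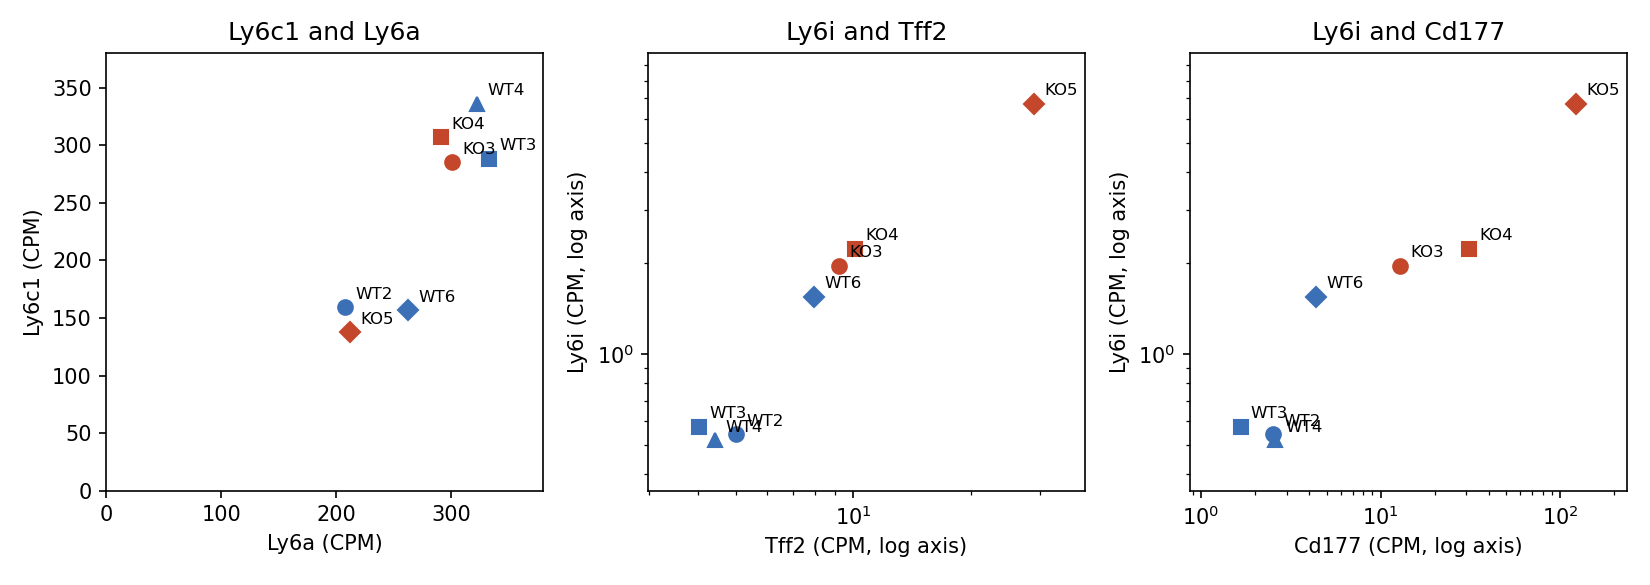
Each point is 1 library (wild type blue, knockout red), with Ly6c1 against Ly6a in CPM on the left, and Ly6i against Tff2 and against Cd177 in CPM on log axes. WT2, WT6 and KO5 lie together at 138 to 159.6 CPM of Ly6c1, and KO5 holds the highest Ly6i, Tff2 and Cd177.

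Ly6c2, the partner of Ly6c1 and the form that classical monocytes express most, had few reads. Its counts were 70, 52, 33 and 45 in WT2, WT3, WT4 and WT6, against 62, 50 and 62 in KO3, KO4 and KO5. These are 2.44 to 4.22 CPM in wild type, against 3.18 to 4.49 CPM in knockouts, with overlap and a log2 fold change of 0.26 ± 0.24 (0.14 ± 0.29 without the pair). Ly6c2 made up 0.722% to 2.58% of the summed Ly6c1 and Ly6c2 counts in wild type and 1.03% to 3.16% in knockout libraries. Taken as 1 gene, the sum of both had a log2 fold change of 0.05 ± 0.36.

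The classical monocyte list (10 genes tested, 0 called, 0 with an unadjusted p under 0.05, 0 in DESeq2) had a median log2 fold change of -0.06. Its most abundant genes, the lysozymes Lyz2 and Lyz1, which other cells of the lung also make, had 2712 ± 415 and 228 ± 28.8 CPM in wild type, against 2634 ± 32.3 and 217 ± 35.97 CPM in knockouts. In the list of patrolling monocytes, which carry little Ly6C, 0 of 10 genes were called (2 with an unadjusted p under 0.05, 0 in DESeq2, median -0.33). Its leading genes were the peptidase Ace, also made by lung endothelium, at 1479 ± 305 and 1549 ± 296 CPM, and the nuclear receptor Nr4a1 at 43.2 ± 13.01 and 31.0 ± 8.95 CPM. Of the 10 log2 fold changes of this list, 4 were positive and 6 negative. The 2 genes with an unadjusted p under 0.05 in edgeR went opposite ways, Treml4 (-1.11) and Pou2f2 (0.93). The adventitial fibroblast list, relevant for Ly6a, also had 0 of 11 called (0 with an unadjusted p under 0.05, 0 in DESeq2, median -0.08), with the growth factor receptor Pdgfra at 595 ± 102 and 564 ± 89.1 CPM and the collagen Col1a2 at 546 ± 52.6 and 504 ± 100.3 CPM.

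Ly6g, the neutrophil antigen gene, had a single count in the series. It was in WT6, and the other 6 libraries had 0 counts, which allows up to 0.181 to 0.222 CPM per library (3 counts). Since both genotypes lie under this limit, no fold is given. Among neutrophil genes, S100a8 and Cxcr2 were low but had counts in all 7 libraries, unlike Mpo and Mrgpra2a. Most of the list had counts in all 7 too, namely S100a9, Retnlg, Csf3r, Mmp8, Mmp9, Ngp, Trem1, Il1r2, Ltf, Cd177 and Lcn2. Camp and Stfa2l1 were at 0 in 1 library each. The calprotectin subunit S100a8 had 1.55 to 2.74 CPM in wild type, against 2.03 to 3.50 CPM in knockouts, and the chemokine receptor Cxcr2 had 1.27 to 2.11 and 1.49 to 2.48 CPM. The granule gene Mpo had 1 count in each of WT6 and KO3 and 0 elsewhere, and Mrgpra2a was at 0 in all 7 libraries. Of the neutrophil list, 12 of 17 genes were tested and 0 called in edgeR (2 with an unadjusted p under 0.05, 1 in DESeq2), with a median of 0.25. The list summed to 132 to 238 CPM in wild type, against 295 to 492 CPM in knockouts. Most of that sum came from Lcn2, Ltf and, in knockouts, Cd177 (12.8, 31.0 and 123 CPM in KO3, KO4 and KO5). Lcn2 (115 ± 56.2 and 250.3 ± 74.7 CPM) and Ltf (39.6 ± 31.7 and 70.1 ± 70.1 CPM) are antimicrobial iron-binding proteins that airway epithelium also makes. S100a8, Cxcr2, Mpo and Mrgpra2a were named here after their values were seen.

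Ly6k, known best from testis, was close to the limit of detection too. It had 1, 3, 3 and 2 counts in WT2, WT3, WT4 and WT6, against 0, 2 and 2 in KO3, KO4 and KO5. The largest of these, 0.222 CPM in WT4, has a 95% Poisson interval of 0.0458 to 0.649 CPM, and the intervals of all 7 libraries overlap.

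Ly6i was the member that differed most in level between the genotypes. Its counts were 9, 9, 7 and 22 in WT2, WT3, WT4 and WT6, against 29, 35 and 93 in KO3, KO4 and KO5. In CPM these are 0.54, 0.57, 0.52 and 1.55 against 1.96, 2.23 and 6.73. All knockout values lay above all wild type values, but the nearest of them, KO3 (95% Poisson interval 1.31 to 2.81 CPM) and WT6 (0.97 to 2.34 CPM), overlapped in counting error, which is the only error these intervals cover. The log2 fold change was 2.19 ± 0.53 (SE), 1.93 ± 0.41 without WT6 and KO5, and 1.40 ± 0.45 without KO5. Ly6i passed the filter on low counts through the knockout libraries, since WT6 was the only wild type library above the 0.658 CPM that the filter asks of 3 libraries. Ly6a, the gene with which Ly6i shares the most sequence, was at 212 CPM in KO5, where Ly6i was highest, and among the lowest values of Ly6a. The part of Ly6a reads in the Ly6i counts was not tested.

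Ly6g and Ly6k did not pass the filter on low counts. Of the 6 members that did, 0 were called in edgeR's quasi-likelihood test after Benjamini-Hochberg adjustment, where 0.0353% of the 19832 genes tested were called (0.0252% higher and 0.0101% lower in knockout libraries). Ly6i had an unadjusted p under 0.05 there, as 2.87% of genes had, and was called in DESeq2, which called 0.237% of genes. It was also 1 of 6 members with all knockout values above all wild type values, a pattern of 2.11% of genes tested, and none of the 6 lay below in all (1.61% of genes tested). The members were chosen with this contrast known, and Ly6i passed the filter only through its high group, so nothing is read from these counts. The median log2 fold change of the 6 was 0.15, with 5 positive values, beside a median of -0.01 and 48.0% positive values over all genes tested. The number of positive values was 3 without KO3, without KO4 or without WT6. Ly6c1 (-0.08, -0.15 and -0.10) and Ly6e (-0.06, -0.09 and -0.07) were then below 0 beside Ly6a. Without WT2, Ly6a (-0.19) and Ly6c1 (-0.10) were below 0. All 6 values were positive without WT3, without WT4, without KO5, and without WT6 and KO5. Ly6a then had 0.02, 0.002, 0.08 and 0.04.

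**Figure D3:**
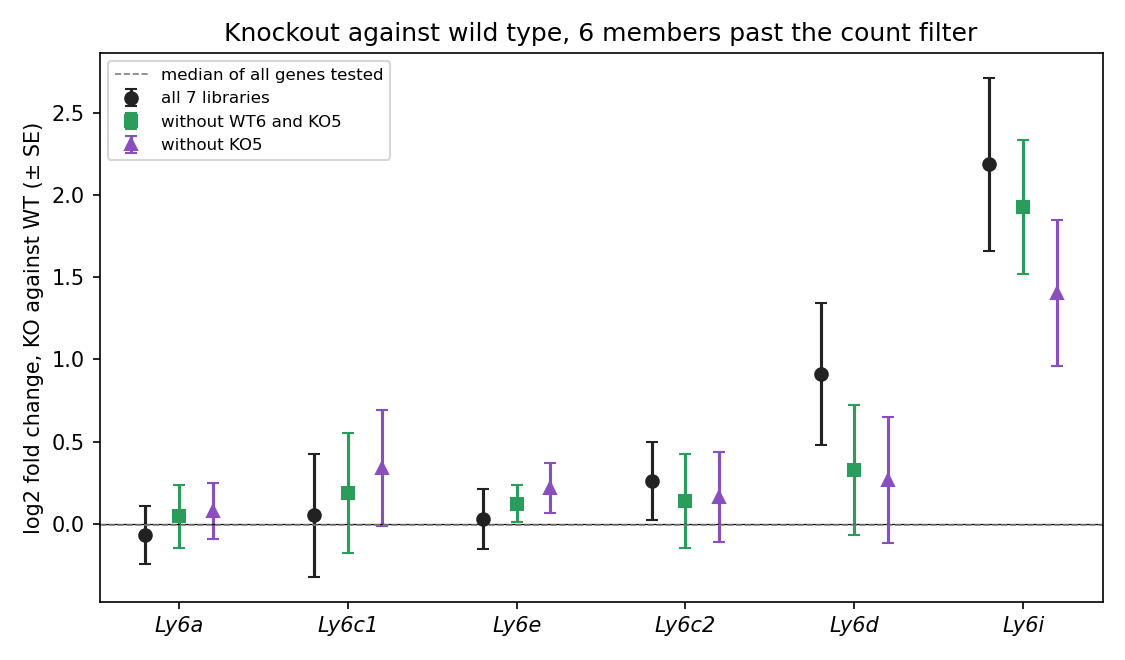
Log2 fold change of knockout against wild type with SE for the 6 members past the count filter, in all 7 libraries, without WT6 and KO5, and without KO5. Ly6a, Ly6c1 and Ly6e stay within 0.34 of 0 in these 3 fits, Ly6d goes from 0.91 to 0.26 without KO5, and Ly6i from 2.19 to 1.40.

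Other genes followed Ly6i across the 7 libraries. Among 11657 genes with a mean of at least 5 CPM, the 3 with the highest Pearson correlation of log2 CPM with Ly6i were the mucosal trefoil peptide Tff2 (r = 0.984), Psd4 (0.981) and the vesicle motor Myo5a (0.977). These values describe 7 libraries that fall into unequal groups, and 0.575% of the genes compared had an r of at least 0.9. Tff2 had 5.001, 4.02, 4.44 and 7.95 CPM in WT2, WT3, WT4 and WT6, against 9.19, 10.1 and 29.0 CPM in KO3, KO4 and KO5. WT6 was thus the highest wild type library and KO5 the highest knockout library for Tff2 as for Ly6i.

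The plasma and T cell lists had their highest sum in KO5, as Ly6i did, and higher sums in all 3 knockout than in all 4 wild type libraries, while the B cell sum of KO3 (46.6 CPM) lay within the wild type range (27.3 to 68.6 CPM). The plasma cell list summed to 459 to 511 CPM in wild type and to 660.3, 1210 and 2293 CPM in KO3, KO4 and KO5, where 8 of 9 tested genes had positive values (0 called in edgeR, 5 with an unadjusted p under 0.05, 3 in DESeq2). The immunoglobulin A heavy chain gene Igha had 40.5 ± 2.23 and 436 ± 405 CPM, and Sdc1, a surface proteoglycan that epithelium also carries, 187 ± 14.8 and 182 ± 15.4 CPM. The log2 fold changes of Xbp1 and Prdm1, transcription factor genes of the list named after their values were seen, were 0.02 and 0.06. Those of the other tested genes of the list were larger. They were 3.97 for Jchain, 3.43 for Igha, 3.35 for Igkc, 2.09 for Mzb1, 0.90 for Derl3 and 0.89 for Ighm, beside -0.04 for Sdc1. The T cell list summed to 22.0 to 28.2 CPM in wild type, against 34.3 to 61.1 CPM in knockouts, with 10 of 10 positive values (0 called, 6 with an unadjusted p under 0.05, 1 in DESeq2). In WT6, the highest wild type library for Ly6i, the T cell sum was 27.8 CPM. The leading T cell genes were Thy1 (6.81 ± 0.45 and 11.3 ± 1.99 CPM) and the co-receptor Cd4 (3.82 ± 0.43 and 9.13 ± 3.26 CPM). No gene of either list was at 0 in all libraries. Their part in the Ly6i values was not tested.

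Ly6d, a gene of B lineage cells and squamous epithelium, varied among the knockout libraries rather than separating the genotypes. Its counts were 27, 28, 21 and 28 in the wild type and 16, 48 and 79 in the knockout libraries, or 1.55 to 1.97 CPM against 1.08, 3.06 and 5.72 CPM. KO3 was the lowest and KO5 the highest of all 7 libraries. The log2 fold change was 0.91 ± 0.43, and it was 0.33 ± 0.40 without WT6 and KO5 and 0.26 ± 0.38 without KO5.

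The gene most like Ly6d over the libraries was Cr2, the complement receptor of B cells and follicular dendritic cells (r = 0.975 over 7 libraries), then Mcph1 (0.968) and Taf1c (0.964), while 0.309% of genes had an r of at least 0.9. Cr2 had 4.74 to 8.51 CPM in wild type libraries, 4.66 CPM in KO3, 15.5 CPM in KO4 and 32.9 CPM in KO5, and so ranked the knockout libraries as Ly6d did. The B cell list summed to 27.3 to 68.6 CPM in wild type and to 46.6, 104.9 and 235 CPM in KO3, KO4 and KO5. All 9 of its genes had positive values with a median of 1.41, and 0 were called in edgeR (5 with an unadjusted p under 0.05, 1 in DESeq2). Its leading genes were the inhibitory receptor Cd22 (8.60 ± 2.37 and 23.1 ± 14.5 CPM) and the receptor subunit Cd79b (8.43 ± 2.82 and 15.7 ± 9.21 CPM).

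Squamous and basal markers, low throughout, also had their lowest sum in KO3 and their highest in KO5. They summed to 7.98 to 12.3 CPM in wild type, against 7.30, 7.89 and 12.5 CPM in KO3, KO4 and KO5. In this list 4 of 8 genes were tested and 0 called (0 with an unadjusted p under 0.05, 0 in DESeq2), and the median was -0.46. Its leading genes were Sbsn (4.36 ± 0.57 and 5.12 ± 0.11 CPM) and the keratin Krt15 (2.18 ± 2.12 and 1.31 ± 1.999 CPM). Krt15 had 0.32 to 5.20 CPM in wild type libraries, 0.068 CPM in KO3, 0.25 CPM in KO4 and 3.62 CPM in KO5, and was thus highest in WT6, where Ly6d had 1.97 CPM. The part of B cell and of squamous and basal markers in the Ly6d values was not tested.

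The abundant members had many genes with a like pattern. Among the genes that followed Ly6a closely were the phosphatase subunit Ppp2ca (r = 0.986) and the matrix enzyme Loxl2 (0.985). For Ly6c1 the nearest genes were the RNA-editing enzyme Adarb1, Washc5 and the zinc finger gene Zfp623 (0.991 each), and for Ly6e the polarity gene Pard3, the lysosomal protease Ctsa and Kank2 (0.993 each). An r of at least 0.9 was reached by 4.60% of genes with Ly6c1 and 5.10% with Ly6e, against 1.60% with Ly6a. Ly6c2 had few such genes (0.112%), led by Ipcef1 (0.970), the sulphate transporter Slc26a1 (0.961) and the interleukin receptor Il3ra (0.960). These are descriptions over 7 libraries that differ in total counts and in their standing on the leading principal component. The part of these differences in the r values was not tested.

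The wider Ly6/uPAR superfamily was set beside the members. Of 32 other genes of this superfamily, 21 had a row and 14 were tested, with 0 called in edgeR (0 with an unadjusted p under 0.05, 0 in DESeq2), 6 positive and 8 negative values and a median log2 fold change of -0.03. Gpihbp1, beyond Ly6h on chromosome 15 (75596628 to 75599481, plus strand), which carries lipoprotein lipase across capillary walls, had 119 ± 14.6 CPM in wild type, against 119 ± 23.9 CPM in knockouts (log2 fold change 0.01 ± 0.14). The urokinase receptor Plaur had 41.1 ± 5.87 and 38.8 ± 3.07 CPM, Lynx1, which acts on nicotinic receptors, 25.04 ± 2.66 and 23.2 ± 1.62 CPM, and the complement regulator Cd59a 22.8 ± 3.004 and 22.3 ± 4.82 CPM. Lypd1, an inhibitor of nicotinic receptors, was the 1 gene of the 14 with all knockout values above the wild type values (0.51 to 0.96 against 1.01 to 1.40 CPM), and it did not pass (0.63 ± 0.34, adjusted p = 1 in edgeR).

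**Figure D4:**
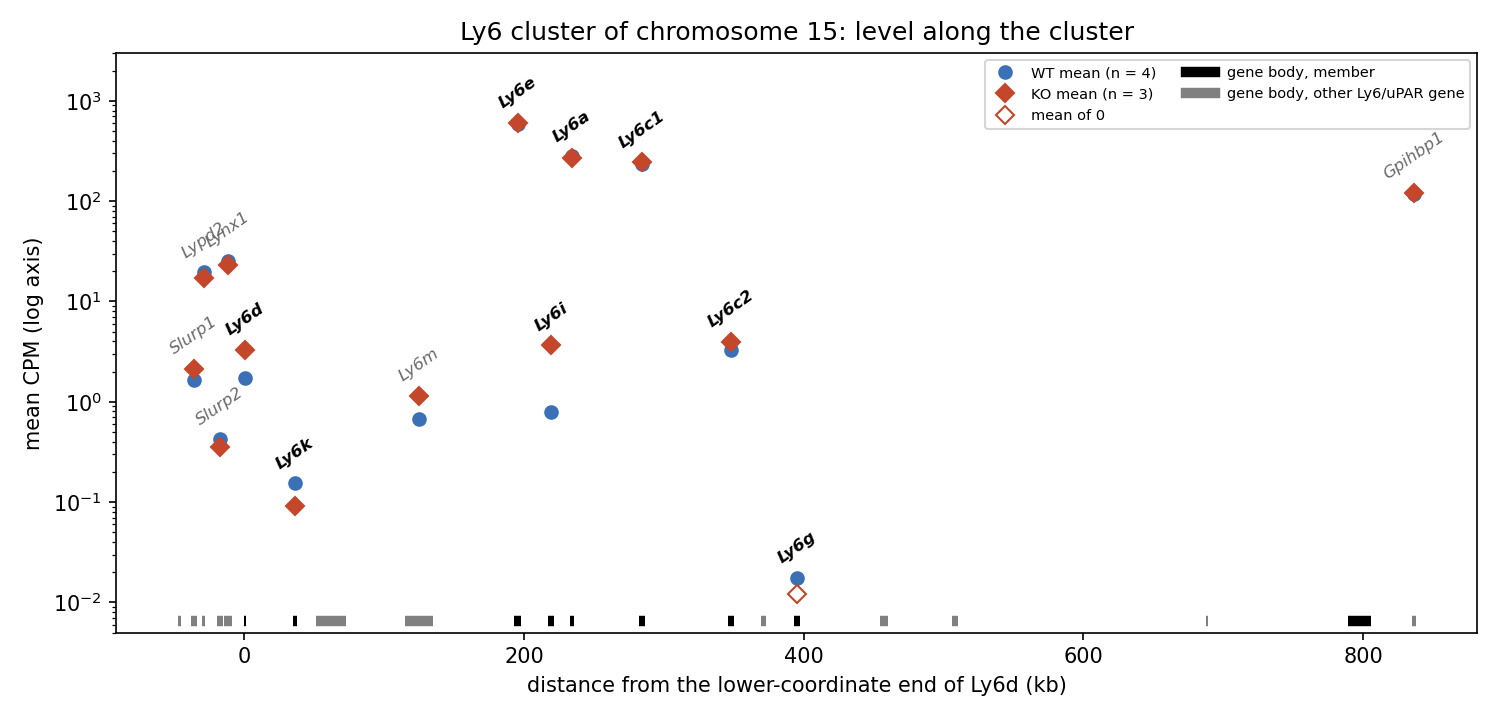
Mean CPM on a log axis of each measured Ly6/uPAR gene of chromosome 15, for wild type (n = 4) and knockout (n = 3), against its distance in kb from the lower-coordinate end of Ly6d, with bars at the foot for gene bodies. The abundant genes Ly6e, Ly6a and Ly6c1 lie next to the low genes Ly6i and Ly6c2, and the genotype means of Ly6i lie the furthest apart in fold among the genes that passed the count filter.

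Cd177, which codes for a neutrophil surface protein built of the same domain and counted here in the neutrophil list, was outside that pattern. Chosen after its values were seen, it had 2.53, 1.66, 2.59 and 4.36 CPM in WT2, WT3, WT4 and WT6, against 12.8, 31.0 and 123 CPM in KO3, KO4 and KO5. As for Ly6i, WT6 was the highest wild type library and KO5 the highest knockout library, and the genotypes did not overlap. In edgeR its log2 fold change, 4.32 ± 0.91 (SE), had an adjusted p of 1, ranging from 2.99 without KO5 to 4.79 without KO3 when a library was left out. DESeq2 called it (adjusted p = 9.23e-05). S100a8, at 2.77, 3.50 and 2.03 CPM in KO3, KO4 and KO5, did not follow it. Ltf was also highest in WT6 (85.7 CPM) and in KO5 (151 CPM) within each genotype. Its values in KO3 and KO4 (30.7 and 28.6 CPM) lay within the wild type range. Of the 12 tested neutrophil genes, 2 had all knockout values above all wild type values, Cd177 and Lcn2 (2.11% of all genes tested did). Lcn2 was highest in KO4 (334 CPM). The part of neutrophils in these values was not tested.

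The neural list, fixed for Ly6h, had 10 of 14 genes tested and 0 called (0 with an unadjusted p under 0.05, 0 in DESeq2), with the growth-associated gene Stmn2 at 40.8 ± 5.99 and 38.5 ± 4.49 CPM and the myelin gene Mbp at 55.8 ± 5.67 and 55.6 ± 5.21 CPM. The mesothelial list had 0 of 11 genes called (0 with an unadjusted p under 0.05, 0 in DESeq2, median -0.06), and Gpm6a and Muc16 led it with 52.1 ± 15.1 and 46.6 ± 28.2 CPM in wild type, against 48.6 ± 6.60 and 45.1 ± 30.7 CPM in knockouts. In the interferon list, Irf1 had 93.4 ± 5.18 and 88.5 ± 3.86 CPM and the guanylate-binding protein gene Gbp2 46.8 ± 11.4 and 39.1 ± 2.97 CPM.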

How the data were processed

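The deposited values are whole-number counts per gene symbol, not normalized, for 7 lung libraries, and totals differ between libraries. The aligner STAR, the package DESeq2 and the mouse build mm10 are listed, without versions, per the submitters' processing notes. The read counter, annotation, strand setting and handling of multiply placed reads were not given in the sources used here. Titles give group and replicate number. The most similar libraries differed beyond sampling noise (chi-square over degrees of freedom 4.30), so each library was counted once.

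Genes were fitted with edgeR 4.0.16 in R 4.3.3 (filterByExpr by genotype, TMM, robust quasi-likelihood test, genotype as the only term, 19832 genes), two-sided, Benjamini-Hochberg adjusted over all genes with a threshold of 0.05. CPM values use TMM-scaled totals, log2 CPM a prior count of 2. The SE of a fold change comes from its F statistic. DESeq2 1.42.0, other scalings and filters, left-out libraries, a replicate block and summed copies were alternatives. The procedure was tested on simulated data. Intervals are 95% exact Poisson intervals and cover counting error only.

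Members, marker lists and tests were chosen with earlier results of these data known. Named genes are all members, the 3 genes most like each member with at least 1 CPM (predicted genes left out, and 1 gene not reported here), the 4 most abundant superfamily genes, and the 2 most abundant genes of each list. Exons, transcripts and positions came from GENCODE M21, alignments from biopython 1.88.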

Additional observations from a re-analysis of the deposited data

Results flagged for a closer look

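Among 4 wild type libraries, a single one lay far from the other 3 in 3 of 29 sets of values checked, where chance gives about 1 in 20. For Ly6i it was WT6, at 1.55 CPM against 0.52 to 0.57 CPM. For the summed T cell markers it was WT4, at 22.0 CPM against 27.8 to 28.2 CPM. For the summed neural markers it was WT2, at 111 CPM against 119 to 120.3 CPM. Groups of 3 knockout libraries were not checked in this way.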

How the results depend on the processing

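The number of genes called over the whole table moved most with the processing. It was 7 with edgeR, 47 with DESeq2, and 3 to 41 when 1 library was left out (3 without WT2, WT3 or WT4, and 41 without KO3). Without WT6 and KO5 it was 14, and with a term for this pair 29, 2 alternatives chosen after seeing the data. A replicate block on numbers 3 and 4 (4 libraries, 1 residual degree of freedom) gave 74. Same-numbered libraries deviated together with correlations of 0.24 and 0.20, but with 2 pairs these numbers are not taken to pair the samples. Cd177, chosen after its values were seen, was called in DESeq2 (log2 fold change 4.31, adjusted p = 9.23e-05) and with the replicate block (3.31, adjusted p = 2.1e-19). It was not called in the other 13 alternatives. The p of the block rests on 1 residual degree of freedom and on numbers not taken to pair the samples, so nothing is read from it. The cause of these changes in calls was not tested. Ly6i was called in DESeq2, with the replicate block (1.92) and with the term for the pair (1.9998). These fits called 47 of 19832, 74 of 19412 and 29 of 19832 genes tested. Ly6i was chosen with this contrast known and passed the filter only through its high group, so nothing is read from these calls. Its log2 fold change ranged from 1.40 without KO5 to 2.71 without WT6. Ly6d ranged from 0.21 with the block to 1.33 without KO3. The median of the tested members ranged from 0.04 without a filter on low counts to 0.24 without KO5, and all members summed as 1 gene had 0.02. Ly6a, Ly6c1 and Ly6e, close to 0, changed sign with the libraries left out (-0.19 to 0.08, -0.15 to 0.34 and -0.09 to 0.22). The relatives had 0 calls in all 15 alternatives. Gpihbp1, Cd59a and Plaur changed sign near 0. Gpihbp1 ranged from -0.12 to 0.16 and Cd59a from -0.15 to 0.14 when 1 library was left out. With the replicate block Cd59a had 0.079 and Plaur 0.11, and without WT6 and KO5 they had 0.054 and 0.031. Lypd1 gave no value when 1 CPM in 3 libraries was asked for. Ly6g and Ly6k, each with a few counts at most, are limited by depth.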
